A study of Mus musculus with 121 samples.

Results

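Regulators of G-protein signalling (RGS proteins) shorten the signal of receptors coupled to G proteins. They speed the hydrolysis of GTP by the active G alpha subunit and so act as GTPase-activating proteins. In the brain they set how long dopamine, opioid, adenosine, serotonin and muscarinic receptors signal, and Rgs9 in particular is known as a striatal gene that limits dopamine and opioid receptor responses. The family is sorted by sequence into subfamilies. Members of the R4 subfamily, Rgs2, Rgs4, Rgs8 and Rgs16, are small proteins with little beside the RGS domain. Those of the R7 subfamily, Rgs6, Rgs7 and Rgs9, are held stable by the G beta subunit Gnb5 and act on Gi and Go. Rgs10 and Rgs14 belong to the R12 subfamily, and Rgs20 to the RZ subfamily, known for its action on Gz. These 10 genes, picked by symbol from the count table, are described here over regions, models and genotypes. Each of the 10 symbols matched a single entry among the 24412 genes of the table.

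The study asks what a rise of endogenous GDNF, a trophic factor of dopamine neurons, does to gene expression in the brain. RNA came from the prefrontal cortex (PFC), striatum (STR) and substantia nigra (SN) of adult male mice of a 129Ola/ICR/C57bl6 mixed background that carry GDNF cKU, a conditional allele from which Cre raises Gdnf at its own locus. In the Nestin-Cre model (GDNF cKU x Nestin-Cre, no treatment, 2 months old) Cre is driven by the Nestin promoter in neural precursors and so acts in the central nervous system from mid-gestation. In the AAV-Cre model (GDNF cKU +AAV-Cre, 5-7 months old) both striata were injected with AAV-Cre at 3-5 months and tissue was taken 2 months later. Each model has wild-type littermates (wt/wt, WT), heterozygotes (wt/cKU, HET) and homozygotes (cKU/cKU, HOM), and WT mice carry Nestin-Cre or received the same virus, so all groups hold Cre. The Nestin-Cre groups of WT, HET and HOM held 8, 6 and 4 libraries in PFC, 6, 7 and 6 in STR and 6, 7 and 6 in SN. The AAV-Cre groups held 7, 7 and 8 libraries in PFC, 7, 7 and 7 in STR and 7, 7 and 8 in SN. In all there were 121 libraries of 43 mice, with 1 library per mouse and region, and mice are written below as M and their number. Counted reads ran from 9869584 to 26750905 per library (median 17885830). The 4 Nestin-Cre PFC HOM libraries were the shallowest group of their model, with 11204112 to 15842364 reads. At this depth the lowest count of a member in any library was 16, for Rgs14 in SN, and the highest 30034, for Rgs9 in STR. All 10 members passed the filter on low counts (1 cpm reached by 3 or more libraries) in every comparison.

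The markers of the labelled regions were measured first, in counts-per-million of the counted reads (cpm). Groups are given below by their lowest, median and highest library. The 12 markers of striatal projection neurons summed to 9679.5, 10643 and 12219 cpm in Nestin-Cre WT STR, with Penk the most abundant, against 456, 648 and 962 cpm in PFC and 233, 302 and 359 cpm in SN. In AAV-Cre WT mice their sums were 6959, 8158 and 9299.8 cpm in STR, 666, 899.6 and 1645 cpm in PFC and 294, 336 and 941 cpm in SN. Every WT STR library thus stood far above every WT library of the other regions. The 9 cortical excitatory markers, led by Slc17a7, summed to 1964, 2149 and 2282 cpm in Nestin-Cre WT PFC and to 1778, 1871 and 2132 cpm in AAV-Cre WT PFC. The 9 dopamine neuron markers, led by Slc6a3, summed to 3470.3, 3739.8 and 4687 cpm in Nestin-Cre WT SN and 2449.8, 3536 and 5002 cpm in AAV-Cre WT SN, against at most 169 cpm in any other WT library. Within the dopamine list, Foxa1 had 0 counts in WT PFC of both models, and En1 also in WT PFC of AAV-Cre mice. Median sums of the 10 oligodendrocyte markers in Nestin-Cre WT PFC, STR and SN were 5145, 8292 and 29492 cpm. For astrocytes (6 markers) they were 2124, 1889 and 4577.1 cpm, for endothelial cells and pericytes (7 markers) 213, 131 and 250.2 cpm, and for choroid plexus (5 markers) 8.47, 107 and 33.1 cpm. Single libraries stood apart in markers of another region or tissue. The Nestin-Cre SN HET library of mouse M4566 held 1686 cpm of striatal markers and the AAV-Cre SN WT library of mouse M3587 held 941 cpm. Fits without them are given below where the value of a member stood apart in them. Cortical excitatory markers reached 551 cpm in a Nestin-Cre STR HOM library, against a group median of 97.9 cpm. In AAV-Cre SN HOM they reached 395 cpm, against a group median of 118 cpm. The highest sum in any other STR or SN group was 335 cpm, in Nestin-Cre STR WT. Choroid plexus markers summed to 311 cpm or less in all but 9 libraries, which held 1209 cpm or more. The highest sums were 21128 cpm in the AAV-Cre SN HET library of mouse M3676, whose PFC library held 1209 cpm, and 18923 cpm in the Nestin-Cre STR HET library of mouse M4566. The other 6 were AAV-Cre STR libraries: WT mice M3585 (8222 cpm) and M3588 (5605 cpm), HET mice M3610 (6920.1 cpm) and M3750 (5213 cpm), and HOM mice M3690 (6561 cpm) and M3607 (4953 cpm). Fits without these 9 libraries were chosen after seeing the data, and are given below for the members concerned. In bulk tissue, fewer cells of a type and less RNA per cell cannot be told apart.

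To compare members with each other, cpm was divided by the counted exon length in kilobases (RPKM). In WT PFC and STR of both models Rgs4 had the highest mean level per length, at 209 and 402 RPKM in Nestin-Cre mice and 123 and 208 RPKM in AAV-Cre mice. Rgs16 had the lowest mean in these regions, at 4.47, 2.09, 4.08 and 3.43 RPKM. In Nestin-Cre WT PFC the order below Rgs4 was Rgs7 (40.1 RPKM), Rgs14 (27.8), Rgs10 (25.6), Rgs8 (19.9), Rgs2 (19.3), Rgs6 (13.3), Rgs20 (11.5) and Rgs9 (7.05). Libraries of neighbours overlapped there from Rgs14 to Rgs2, between Rgs6 and Rgs20, and between Rgs9 and Rgs16. Rgs4 and Rgs7 stood clear of the genes ranked under them. AAV-Cre WT PFC had the same ends of the order, with Rgs7 (32.2 RPKM), Rgs10 (32.1) and Rgs14 (31.0) overlapping each other and Rgs9 at 17.3 RPKM.

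Rgs9 ranked just under Rgs4 in STR, with 110.2 RPKM in Nestin-Cre and 143 RPKM in AAV-Cre WT mice. The AAV-Cre libraries of the pair overlapped, while the Nestin-Cre libraries did not. Rgs10 came next in both models (91.2 and 65.7 RPKM), and it overlapped Rgs9 only in Nestin-Cre mice. In Nestin-Cre WT STR there followed Rgs2 (71.5), Rgs14 (49.0), Rgs8 (46.1), Rgs7 (29.8), Rgs20 (26.4) and Rgs6 (4.26 RPKM). Of these, Rgs2, Rgs14 and Rgs8 overlapped in a row, and so did Rgs7 and Rgs20. In WT SN the top pair was Rgs10 and Rgs4, whose libraries overlapped in both models (74.0 and 53.7 RPKM in Nestin-Cre, 49.9 and 54.9 RPKM in AAV-Cre mice). Rgs14 was at the bottom in SN, with 1.78 and 1.66 RPKM, and overlapped the gene above it in both models. Summed over the 10 members, mean levels in WT PFC, STR and SN were 378, 832 and 232 RPKM in Nestin-Cre mice. The corresponding sums in AAV-Cre mice were 306, 597 and 220.5 RPKM, so that STR held the most and SN the least in both models.

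**Figure D1:**
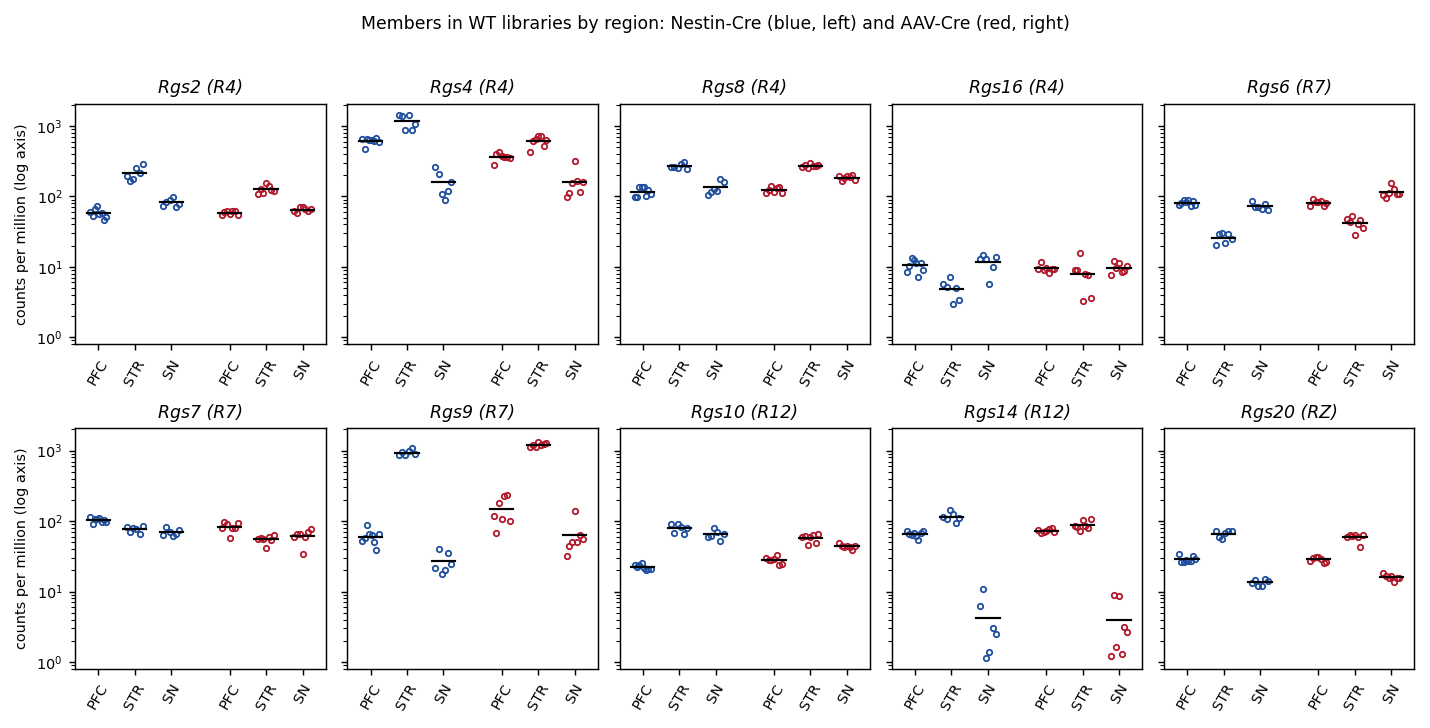
Levels of the 10 members in WT libraries, in cpm on a log axis, by region (PFC, STR, SN). Each circle is 1 library of a Nestin-Cre (blue) or AAV-Cre (red) mouse and each bar the group mean. Rgs9 is far higher in STR than in PFC or SN, Rgs14 is near the bottom of the axis in SN, and Rgs16 is low in every region.

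The R4 members differed in where they were most abundant. WT libraries of the 3 regions were compared within each model with edgeR's quasi-likelihood F test, and differences are log2 fold changes with their standard error (SE). Rgs2, a small regulator known for acting on Gq, measured 46.6, 56.6 and 74.0 cpm in PFC, 167, 205 and 286 cpm in STR and 71.1, 80.4 and 99.1 cpm in SN of Nestin-Cre WT mice. All 6 STR libraries lay above every PFC and SN library, and the STR minus PFC difference was 1.85 (SE 0.12, adjusted p 9.79e-12). AAV-Cre WT values, in the same order of regions, were 53.9, 60.9 and 62.9 cpm, 107, 121 and 155 cpm and 57.9, 65.1 and 70.9 cpm. Again all 7 STR libraries were above those of the other regions, with a log2 difference from PFC of 1.05 (SE 0.076, adjusted p 4.65e-11). Between SN and PFC, Rgs2 differed by 0.32 (SE 0.12, adjusted p 0.0186) in Nestin-Cre mice, while the AAV-Cre value of 0.045 (SE 0.076, adjusted p 0.610) did not pass.

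Rgs4, which acts on Gi, Go and Gq and is one of the most studied family genes in cortex, measured 468, 626 and 675 cpm in PFC, 877, 1219 and 1449 cpm in STR and 89.4, 139.8 and 265 cpm in SN of Nestin-Cre WT mice. The 3 regions did not overlap: STR was highest, PFC in the middle and SN lowest. In log2 terms STR exceeded PFC by 0.91 (SE 0.18, adjusted p 0.000193) and SN minus PFC was -2.16 (SE 0.20, adjusted p 2.66e-09). In AAV-Cre WT mice Rgs4 measured 275, 359.9 and 427 cpm in PFC, 423, 624 and 724 cpm in STR and 97.7, 157 and 318 cpm in SN. Here 6 of 7 STR libraries were above every PFC library (log2 difference 0.71, SE 0.19, adjusted p 0.00298), and 6 of 7 SN libraries were below every PFC library (log2 difference -1.26, SE 0.19, adjusted p 4.56e-06). Without the SN library of mouse M3587 the latter was -1.51. The exception in SN was that mouse, whose Rgs4 of 318 cpm stood beside the highest striatal and cortical marker sums of the group, 941 and 317 cpm.

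Rgs8, a regulator of Gi and Go also known from cerebellar Purkinje cells, measured 96.3, 116 and 136 cpm in PFC, 248, 261 and 304 cpm in STR and 105, 122 and 178 cpm in SN of Nestin-Cre WT mice. STR stood above the other regions in all 6 libraries, with a log2 difference from PFC of 1.18 (SE 0.12, adjusted p 2.55e-08), and SN overlapped PFC (log2 difference 0.020, SE 0.12, adjusted p 0.887). AAV-Cre WT mice had 110.4, 122 and 138 cpm in PFC, 253, 269 and 294 cpm in STR and 166, 189 and 199 cpm in SN. There all 7 SN libraries were above every PFC library, a log2 difference of 0.49 (SE 0.062, adjusted p 2.92e-07), and STR was higher still. Rgs16, a regulator of Gi and Gq whose transcript follows the day in the circadian clock, was the scarcest R4 member: it measured 7.13, 10.8 and 13.4 cpm in PFC, 2.92, 5.10 and 7.22 cpm in STR and 5.67, 12.8 and 14.9 cpm in SN of Nestin-Cre WT mice. Unlike the other R4 members it was lowest in STR, at -1.12 (SE 0.21, adjusted p 8.01e-05) against PFC, with 5 of 6 STR libraries under every PFC library. The AAV-Cre WT values of 8.18, 9.39 and 11.9 cpm in PFC, 3.29, 7.79 and 15.6 cpm in STR and 7.68, 9.56 and 12.1 cpm in SN overlapped across regions and none of the 3 region differences passed. Without the STR libraries of mice M3585 and M3588, which were high in choroid plexus markers, STR minus PFC went from -0.31 to -0.60 (adjusted p 0.0188) and SN minus STR from 0.24 to 0.49 (adjusted p 0.0410), and both passed. In the reported fit and the other alternatives the adjusted p ran from 0.158 to 0.543 and from 0.219 to 0.939. STR of AAV-Cre mice had the widest spread of these groups.

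Among the R7 members, Rgs9 had the largest regional differences, and of the 10 members it had the largest STR minus PFC difference in both models. It measured 38.4, 60.3 and 87.9 cpm in PFC, 864, 923 and 1085 cpm in STR and 17.9, 23.2 and 40.2 cpm in SN of Nestin-Cre WT mice. STR minus PFC was 3.93 (SE 0.17, adjusted p 3.27e-14) on the log2 scale, and SN minus STR was -5.30 (SE 0.21, adjusted p 2.36e-15). In AAV-Cre WT mice it measured 67.4, 118 and 236 cpm in PFC, 1130.0, 1202 and 1309 cpm in STR and 32.1, 50.6 and 140.3 cpm in SN. STR libraries were all above those of PFC and SN, and SN minus STR was -4.33 (SE 0.30, adjusted p 1.58e-11), or -4.66 without the SN library of mouse M3587. The PFC and SN values spread widely. Striatal markers spread with them, as set out further on.

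Rgs6, an R7 member also known for slowing muscarinic signalling in the heart, ran the other way and was lowest in STR. It measured 73.7, 81.0 and 90.1 cpm in PFC, 20.6, 26.8 and 30.5 cpm in STR and 63.0, 70.9 and 86.7 cpm in SN of Nestin-Cre WT mice, and every STR library was below every PFC and SN library. STR minus PFC was -1.68 (SE 0.093, adjusted p 1.33e-12). AAV-Cre WT mice had 72.4, 82.0 and 92.6 cpm in PFC, 28.7, 43.9 and 53.2 cpm in STR and 94.3, 108 and 157 cpm in SN, with no overlap between any of the regions. The sign of SN minus PFC differed between the models: -0.36 (SE 0.088, adjusted p 0.000977) in Nestin-Cre and 0.41 (SE 0.11, adjusted p 0.00220) in AAV-Cre mice. The difference between these contrasts was not tested. Rgs7, which with Gnb5 binds the orphan receptor Gpr158 in cortex, varied over a narrower range between regions than Rgs6 and Rgs9. It measured 90.5, 105 and 113 cpm in PFC, 64.8, 77.6 and 85.4 cpm in STR and 60.6, 68.0 and 83.6 cpm in SN of Nestin-Cre WT mice, and PFC was above STR and SN in every library. STR minus PFC was -0.46 (SE 0.077, adjusted p 2.39e-05) and SN minus PFC -0.75 (SE 0.078, adjusted p 1.65e-08). In AAV-Cre WT mice Rgs7 measured 57.3, 81.0 and 97.7 cpm in PFC, 41.0, 56.3 and 62.9 cpm in STR and 34.0, 65.5 and 76.1 cpm in SN. The lowest value in each of these regions belonged to mouse M3587. STR minus PFC was -0.63 (SE 0.14, adjusted p 0.000387), and SN minus STR did not pass at 0.11 (SE 0.14, adjusted p 0.471), though it reached 0.22 (adjusted p 0.0636) without the SN library of that mouse. With the mouse left out of all regions, it was 0.11 (adjusted p 0.181) and did not pass.

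Proteins that bind R7 members were followed as a list of 5 (Gnb5, Rgs7bp, Rgs9bp, Gpr158 and Gpr179), of which 4 passed the filter in each model. Against PFC, STR had 3 of the 4 higher and 0 lower in Nestin-Cre WT mice (median log2 difference 0.76), and 4 higher in AAV-Cre WT mice (median 0.77), where 68.1% and 65.6% of all genes tested were called. Gnb5, the obligate partner, was higher in STR by 1.28 and 0.94 in the respective models, and Rgs7bp, a membrane anchor, by 0.83 and 0.79. SN against STR had 1 higher and 3 lower in Nestin-Cre mice and 1 higher and 3 lower in AAV-Cre mice (all genes 76.2% and 75.6%), with Gnb5 at -1.98 and -1.46. The gene higher in SN was Gpr179, by 3.03 and 2.89. SN against PFC had 1 higher and 3 lower in Nestin-Cre mice, and 2 and 2 in AAV-Cre mice (all genes 78.8% and 74.1%). With 4 genes tested, these counts do not set the list apart from all genes.

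The R12 members had distinct patterns. Rgs10, a small regulator of Gi and Go known from microglia and neurons, measured 20.1, 22.2 and 25.5 cpm in PFC, 66.6, 82.1 and 90.8 cpm in STR and 51.7, 64.3 and 79.8 cpm in SN of Nestin-Cre WT mice. PFC was the lowest region, with all STR and SN libraries above it. STR minus PFC was 1.80 (SE 0.093, adjusted p 3.82e-13) and SN minus PFC 1.34 (SE 0.093, adjusted p 2.36e-11). AAV-Cre WT mice had 23.9, 28.1 and 33.3 cpm in PFC, 45.2, 60.4 and 64.8 cpm in STR and 39.5, 43.6 and 48.5 cpm in SN, again with PFC below both other regions in every library (log2 differences 0.99 and 0.55).

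Rgs14, a scaffold with a GoLoco motif that also binds Ras proteins and is known for restraining hippocampal plasticity, was scarce in SN. It measured 54.6, 66.6 and 73.5 cpm in PFC, 93.8, 112 and 142 cpm in STR and 1.14, 2.78 and 10.9 cpm in SN of Nestin-Cre WT mice. SN was under PFC and STR in every library, with a log2 difference from PFC of -4.19 (SE 0.30, adjusted p 4.11e-11). In AAV-Cre WT mice Rgs14 measured 68.1, 73.3 and 78.6 cpm in PFC, 73.3, 83.9 and 107 cpm in STR and 1.23, 2.67 and 8.85 cpm in SN, and SN minus PFC was -4.28 (SE 0.28, adjusted p 7.02e-12), or -4.59 without the SN library of mouse M3587. Rgs14 had the largest SN minus PFC difference of the 10 members in both models, and its SN minus STR difference was -4.97 in the Nestin-Cre and -4.51 in the AAV-Cre model, beside -5.30 and -4.33 for Rgs9. STR was above PFC in Nestin-Cre mice by 0.79 (SE 0.23, adjusted p 0.00528), with no overlap. The same comparison in AAV-Cre mice, 0.23 (SE 0.23, adjusted p 0.388), did not pass. Rgs20, the RZ member, measured 26.2, 27.5 and 34.5 cpm in PFC, 54.8, 70.2 and 71.8 cpm in STR and 11.8, 13.9 and 14.9 cpm in SN of Nestin-Cre WT mice. Its regions did not overlap, with STR highest and SN lowest. STR minus PFC was 1.17 (SE 0.081, adjusted p 5.34e-11) and SN minus PFC -1.28 (SE 0.088, adjusted p 2.39e-11). AAV-Cre WT mice had the same order without overlap, at 25.8, 28.8 and 31.3 cpm in PFC, 42.4, 61.7 and 64.0 cpm in STR and 13.8, 15.7 and 18.1 cpm in SN.

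Counted together at an adjusted p under 0.1, 7 of the 10 members were higher and 3 lower in Nestin-Cre WT STR than PFC, where 68.1% of all genes tested were called. The members' median log2 difference was 1.04, against 0.0027 for all genes tested. SN against PFC gave 2 higher and 6 lower (background 78.8%, members' median -0.56, all genes -0.033). SN against STR gave 2 higher and 8 lower (background 76.2%, members' median -1.35, all genes 0.0060). In AAV-Cre WT mice STR against PFC gave 6 higher and 2 lower (background 65.6%, members' median 0.85, all genes 0.018). SN against PFC gave 3 higher and 5 lower (background 74.1%, medians -0.29 and 0.015), and SN against STR 1 higher and 7 lower (background 75.6%, medians -0.80 and 0.028). Most genes differ between these regions, so these shares are no result about the members. The 3 contrasts of a model share libraries. In Nestin-Cre mice the members lower in STR than PFC were Rgs16, Rgs6 and Rgs7, and in AAV-Cre mice Rgs6 and Rgs7.

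The other genes of the pathway varied by region too. Of 11 further RGS genes 7 passed the filter, and in STR against PFC, where 68.1% and 65.6% of all genes tested were called in the respective models, 2 were higher and 3 lower in Nestin-Cre mice and 2 and 2 in AAV-Cre mice, with Rgs19 at -0.65 and -0.98. For G alpha subunits the counts were 2 higher and 7 lower of 12 in Nestin-Cre and 5 and 6 of 13 in AAV-Cre mice. Gnal, the olfactory-type stimulatory subunit that serves dopamine receptors in striatum, was higher in STR by 1.76 and 1.42, whereas Gnas, its relative elsewhere in the brain, was lower (-1.32 and -1.21). Of 14 G beta and gamma subunits tested, 8 were higher and 5 lower in Nestin-Cre mice, and 6 and 6 in AAV-Cre mice. Gng7, the gamma subunit paired with Gnal, was 3.00 higher in Nestin-Cre STR. Of 5 other G alpha modulators tested, 1 was higher and 2 lower in Nestin-Cre mice, and 1 and 1 in AAV-Cre mice, the higher one being Ric8b (1.84 and 1.52), a chaperone of Gnal. Receptor kinases and arrestins had 0 of 7 higher and 5 lower in Nestin-Cre mice and 2 and 5 in AAV-Cre mice, with Grk2 at -1.27 and -1.27. Effectors had 4 of 17 higher and 11 lower in Nestin-Cre mice and 5 and 10 in AAV-Cre mice. Adcy5, the main adenylyl cyclase of striatal neurons, was 2.82 higher in Nestin-Cre STR and Kcnj3, a subunit of G-protein-gated potassium channels, differed by -2.54. Immediate-early genes had 2 of 12 higher and 4 lower in Nestin-Cre mice and 2 and 2 in AAV-Cre mice. In SN against STR (all genes 76.2% and 75.6%), the counts higher and lower in Nestin-Cre and then AAV-Cre mice were 4 and 3 of 7, then 3 and 3 of 7 for the further RGS genes, 6 and 4 of 12, then 7 and 3 of 13 for G alpha subunits, 7 and 5 of 14, then 6 and 5 of 14 for G beta and gamma subunits, 1 and 2 of 5, then 2 and 2 of 5 for other modulators, 4 and 3 of 7, then 3 and 3 of 7 for receptor kinases and arrestins, 9 and 7 of 17, then 10 and 6 of 17 for effectors and 1 and 9 of 12, then 1 and 9 of 12 for immediate-early genes. Among the genes named above, Gng7 differed by -5.18 and -4.45, Gnal by -2.71 and -1.92, Adcy5 by -3.93 and -3.20 and Ric8b by -1.63 and -1.32, while Gnas differed by 1.39 and 1.52.

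WT mice of both models were then compared within each region. The models differ in age, surgery, virus and Cre driver, which cannot be told apart, and many genes differed: 46.9% of genes in PFC, 61.9% in STR and 62.4% in SN. Of the 10 members, AAV-Cre mice had 3 higher and 2 lower in PFC, 3 higher and 6 lower in STR, and 4 higher and 2 lower in SN. Rgs4 was lower in AAV-Cre PFC, at -0.78 (SE 0.090, adjusted p 2.45e-05) and in AAV-Cre STR, at -0.99 (SE 0.15, adjusted p 0.000118), and in both regions all 7 AAV-Cre libraries were under every Nestin-Cre library. In SN the Rgs4 difference of 0.016 (SE 0.28, adjusted p 0.966) did not pass, and it was -0.23 without the library of mouse M3587. Rgs2 was lower in AAV-Cre STR, at -0.81 (SE 0.12, adjusted p 8.76e-05) and in SN, at -0.38 (SE 0.086, adjusted p 0.00172), each time without overlap. Rgs10 took opposite signs by region: 0.30 (SE 0.070, adjusted p 0.00324) in PFC, -0.51 (SE 0.10, adjusted p 0.000707) in STR and -0.60 (SE 0.094, adjusted p 9.60e-05) in SN.

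Microglial markers, 10 of 10 in the table and none of them at 0, had median sums of 469 and 592 cpm in Nestin-Cre and AAV-Cre PFC, 643 and 706 cpm in STR and 734 and 605 cpm in SN. Csf1r was the most abundant of them in PFC, and their part in the Rgs10 differences was not tested. Rgs9 was higher in AAV-Cre mice in every region: 1.27 (SE 0.23, adjusted p 0.000457) in PFC, 0.33 (SE 0.068, adjusted p 0.000836) in STR and 1.21 (SE 0.30, adjusted p 0.00346) in SN, or 0.87 in SN without mouse M3587. Of the striatal marker sums given above, the median was higher in AAV-Cre PFC and SN, like Rgs9, but in STR every AAV-Cre library was under every Nestin-Cre library, and their part was not tested. Rgs6 was higher in AAV-Cre STR (0.66, SE 0.13, adjusted p 0.000661) and SN (0.65, SE 0.11, adjusted p 0.000135), and Rgs7 was lower in PFC (-0.34) and STR (-0.51). Rgs8 differed only in SN, by 0.44 (SE 0.11, adjusted p 0.00505). Rgs14 was lower in AAV-Cre STR (-0.43, SE 0.11, adjusted p 0.00314) and slightly higher in PFC (0.13, SE 0.058, adjusted p 0.0908). The PFC call ended under each of the 5 alternatives run for it, among them leaving out the PFC library of mouse M4575 (0.075). Rgs20 was lower in STR (-0.21, a call that ended without the libraries of mice M3585 and M3588, at -0.22 with adjusted p 0.119) and higher in SN (0.21). Rgs16 was higher in AAV-Cre STR (0.66, SE 0.31, adjusted p 0.0870), with 5 of 7 libraries above every Nestin-Cre library. This call ended without the filter on low counts, at 0.62 (adjusted p 0.114), and without the AAV-Cre libraries of mice M3585 and M3588, high in choroid plexus markers, at 0.37 (adjusted p 0.322). In PFC Rgs16 did not pass at -0.16, though it did without mouse M4575 at -0.24 (adjusted p 0.0964).

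Between the models, R7 partners were higher and lower in AAV-Cre mice as follows: 0 and 3 of 4 in PFC, 1 and 3 of 4 in STR, 3 and 0 of 4 in SN. Gnb5 was lower in AAV-Cre STR (-0.48), where of the R7 members Rgs7 was lower too and Rgs6 and Rgs9 were higher. For the further RGS genes the counts were 3 and 1 of 7 in PFC, 2 and 3 of 7 in STR, 3 and 1 of 7 in SN, and for G alpha subunits 3 and 4 of 12 in PFC, 3 and 2 of 13 in STR, 6 and 2 of 12 in SN. G beta and gamma subunits gave 1 and 3 of 14 in PFC, 1 and 9 of 14 in STR, 2 and 8 of 14 in SN, with Gng7 higher in AAV-Cre PFC (0.75). Other G alpha modulators gave 0 and 1 of 5 in PFC, 0 and 2 of 5 in STR, 1 and 2 of 5 in SN, receptor kinases and arrestins 4 and 0 of 7 in PFC, 4 and 0 of 7 in STR, 6 and 0 of 7 in SN, effectors 5 and 5 of 16 in PFC, 10 and 1 of 17 in STR, 15 and 0 of 17 in SN, and immediate-early genes 0 and 1 of 12 in PFC, 1 and 1 of 12 in STR, 3 and 0 of 11 in SN. Of all genes tested, 46.9% in PFC, 61.9% in STR and 62.4% in SN were called, and whether a list departs from these shares was not tested.

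Genotypes were compared within each model and region, HET and HOM each with the same WT libraries, which both comparisons share. None of the 10 members passed an adjusted p of 0.1 in any of the 12 comparisons with edgeR's quasi-likelihood test. Few other genes did: the share called was 0.250% in Nestin-Cre PFC HOM, 0.0137% in AAV-Cre PFC HOM and 0% in the other 10. The largest absolute log2 difference of a member in a comparison ran from 0.248 (AAV-Cre PFC HET) to 1.29 (Nestin-Cre SN HET). Gdnf itself, the targeted gene, measured 3.88, 5.98 and 7.21 cpm in Nestin-Cre STR of WT mice, 4.04, 5.67 and 9.05 cpm of HET and 5.79, 6.65 and 9.59 cpm of HOM mice. These groups overlapped, and HOM minus WT was 0.28 (SE 0.19, adjusted p 0.784). In AAV-Cre STR Gdnf measured 5.45, 6.74 and 7.45 cpm in WT, 6.46, 7.37 and 9.42 cpm in HET and 7.71, 8.67 and 9.98 cpm in HOM mice. All 7 HOM libraries were above every WT library, a log2 difference of 0.40 (SE 0.094) that did not pass over all genes (adjusted p 0.504). By qPCR the paper reports more striatal Gdnf mRNA in mutants of both models, and by ELISA more GDNF protein in Nestin-Cre mutants. It describes the mRNA of the recombined allele as having a short untranslated end, and the part of this in the counted reads was not tested.

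**Figure D2:**
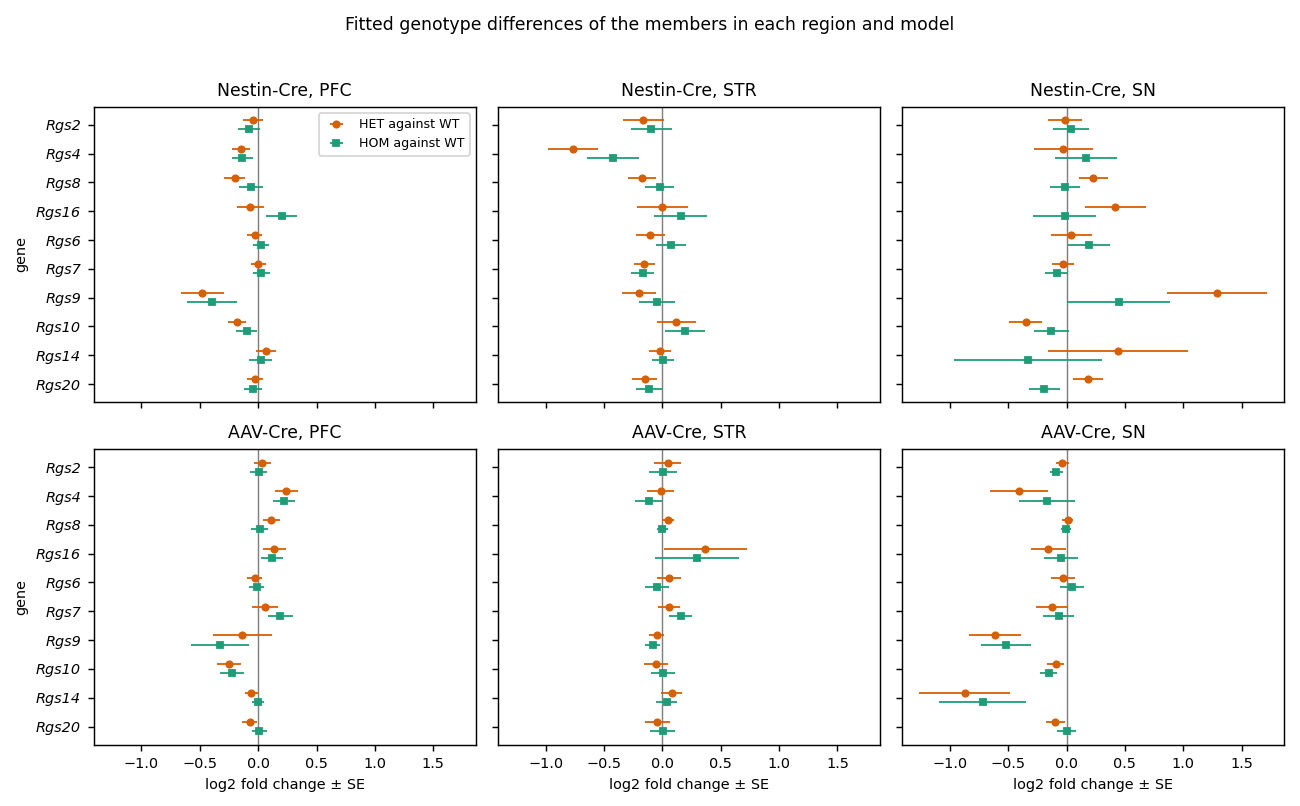
Fitted log2 fold changes of the 10 members in HET (orange circles) and HOM (green squares) against WT, by region and model. Bars are 1 standard error and the grey line marks 0. No member passed an adjusted p of 0.1 in any panel, and the widest bars belong to Rgs9 and Rgs14 in Nestin-Cre SN.

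In Nestin-Cre PFC, 3 members had an unadjusted edgeR p under 0.05 in HET and 0 in HOM, where 1398 and 1446 of 14386 genes did. Rgs9 measured 38.4, 60.3 and 87.9 cpm in WT, 24.8, 43.4 and 62.8 cpm in HET, and 36.3, 37.2, 46.9 and 64.8 cpm in the 4 HOM libraries. Of the HET libraries 2 of 6 were under every WT library and 1 was above the WT median, and of the HOM libraries 2 of 4 were under every WT library and 1 above the median. The log2 differences were -0.48 (SE 0.18, adjusted p 0.400) for HET and -0.40 (SE 0.21, adjusted p 0.570) for HOM. Striatal markers moved with Rgs9 here: all 12 were detected, their sums were 456, 648 and 962 cpm in WT and 318, 409.6 and 515 cpm in HET, and the 4 HOM libraries held 297, 362, 481 and 572 cpm. The most abundant was Ppp1r1b in WT and HOM and Pde10a in HET, and their part in the Rgs9 values was not tested. Rgs8 measured 96.3, 116 and 136 cpm in WT and 89.9, 101 and 116 cpm in HET, a log2 difference of -0.20 (SE 0.090, adjusted p 0.471), with 0 of 6 HET libraries above the WT median. Rgs10 measured 20.1, 22.2 and 25.5 cpm in WT and 18.8, 19.6 and 21.5 cpm in HET, where 4 of 6 were below every WT library (log2 difference -0.18, SE 0.075, adjusted p 0.429). Its HOM libraries, at 16.2, 22.3, 23.1 and 23.2 cpm, lay within the WT range apart from the lowest. Microglial markers, with 10 of 10 detected, summed to 417, 469 and 514 cpm in WT and 420.3, 437 and 441 cpm in HET, and the 4 HOM libraries held 409, 472, 478 and 481 cpm. Oligodendrocyte markers, led by Mbp, summed to 4038, 5145 and 6875 cpm in WT and 3582, 4130.0 and 4227 cpm in HET, and to 2986, 3836, 3850.1 and 4960.2 cpm in HOM. Their part was not tested. The count of genes called was 0 in HET with the quasi-likelihood test, 116 with DESeq2, 415 with edgeR's likelihood ratio test, and 91 without the WT library of mouse M4575 (a mouse with the label HOM for its STR and SN), and the only member among them was Rgs9, in the likelihood ratio test. In HOM 36 genes were called (25 up, 11 down), DESeq2 called 227 and the likelihood ratio test 310, again with Rgs9 the only member in the latter, and leaving out 1 WT or HOM library at a time gave 1 gene (without HOM mouse M4568) to 126 genes (without WT mouse M4329) and in each of the 12 refits 0 members. The other refits that moved this count by more than 1.5 times left out HOM mice M4569 (9 genes) and M4580 (122) or WT mice M4326 (13), M4529 (17) and M4609 (15).

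In Nestin-Cre STR, 1 member had an unadjusted edgeR p under 0.05 in HET and 0 in HOM, where 2513 and 670 of 14494 genes did. This member was Rgs4, at 877, 1219 and 1449 cpm in WT, 512, 651 and 977 cpm in HET and 463, 929 and 1321 cpm in HOM mice. Of the 7 HET libraries 5 were under every WT library and 0 were above the WT median, while the 6 HOM libraries spread over a wide range, with 2 under every WT library and 1 above the WT median. HET minus WT was -0.76 (SE 0.21, unadjusted p 0.00196, adjusted p 0.175) and HOM minus WT -0.42 (SE 0.22, adjusted p 0.784). Under DESeq2 the HET difference passed at -0.77 (adjusted p 0.0406), among 535 genes called, and it passed under the likelihood ratio test among 1242. The lowest HET library was that of mouse M4566, which also held 18923 cpm of choroid plexus markers, and without it HET minus WT was -0.70 (unadjusted p 0.00495, adjusted p 0.266). HOM had 0 genes called with the quasi-likelihood test, 1 with DESeq2 and 277 with the likelihood ratio test, and no member among them. Striatal markers stood lower in the same libraries. Their sums were 9679.5, 10643 and 12219 cpm in WT, 6429, 7748 and 10905 cpm in HET and 6843, 9709 and 11123 cpm in HOM mice, with 12 of 12 detected and Penk the most abundant in each group. Their part in the Rgs4 values was not tested. The remaining 9 members had HET differences from -0.20 (Rgs9) to 0.12 (Rgs10) and HOM differences from -0.17 (Rgs7) to 0.19 (Rgs10).

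In Nestin-Cre SN, 2 members had an unadjusted edgeR p under 0.05 in HET and 0 in HOM, where 1337 and 608 of 14873 genes did. Rgs9 measured 17.9, 23.2 and 40.2 cpm in WT, 30.3, 38.3 and 227 cpm in HET and 24.5, 29.1 and 61.2 cpm in HOM mice. All 7 HET and all 6 HOM libraries were above the WT median. The HET difference of 1.29 (SE 0.43, unadjusted p 0.00730, adjusted p 0.518) rested in large part on mouse M4566, and without its library it was 0.52 (unadjusted p 0.0383, adjusted p 0.494). In that library Rgs14 (22.9 cpm) and Rgs20 (22.0 cpm) were also the highest of the group. Without it the Rgs14 difference turned from 0.44 to -0.61 and that of Rgs20 went from 0.18 to 0.076. The 12 striatal markers summed to 233, 302 and 359 cpm in WT and 280.3, 321 and 1686 cpm in HET, Penk being the most abundant, and the highest HET value was that of mouse M4566. In HOM mice these markers summed to 236, 302 and 383 cpm. Rgs10 measured 51.7, 64.3 and 79.8 cpm in WT and 36.6, 52.0 and 61.2 cpm in HET, with 0 of 7 HET libraries above the WT median and a log2 difference of -0.35 (SE 0.14, adjusted p 0.518). Microglial markers summed to 651, 734 and 961 cpm in WT and 457, 637 and 717 cpm in HET, with 10 of 10 detected. Oligodendrocyte markers summed to 19963, 29492 and 35393 cpm in WT and 17821, 24688 and 27461 cpm in HET, and astrocyte markers to 3775, 4577.1 and 5916 cpm and 3292, 4177 and 4878 cpm, respectively. The part of these lists was not tested. The quasi-likelihood test called 0 genes in either genotype, DESeq2 5 in HET and 1 in HOM, and the likelihood ratio test 332 and 119. Rgs9 in HET was the only member among these, under the likelihood ratio test.

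In AAV-Cre PFC, 2 members had an unadjusted edgeR p under 0.05 in HET and 2 in HOM, where 1806 and 2074 of 14628 genes did. They were Rgs4 and Rgs10 in both. Without mice M3587 and M3652, 1 member did so in HET and 1 in HOM, with 1241 and 1574 of 14594 genes. Rgs4 measured 275, 359.9 and 427 cpm in WT, 371, 438 and 492 cpm in HET and 317, 414 and 519 cpm in HOM mice. All 7 HET and 7 of 8 HOM libraries were above the WT median. The log2 differences were 0.24 (SE 0.097, adjusted p 0.350) and 0.22 (SE 0.094, adjusted p 0.297). Cortical excitatory markers also stood higher, with median sums of 1871, 1986 and 2115 cpm in WT, HET and HOM mice. Their part in the Rgs4 values was not tested. Rgs10 measured 23.9, 28.1 and 33.3 cpm in WT, 17.2, 24.1 and 28.3 cpm in HET and 18.6, 22.3 and 31.2 cpm in HOM mice. Here 1 of 7 HET and 2 of 8 HOM libraries were above the WT median, and 6 of 8 HOM libraries were under every WT library. The log2 differences were -0.25 (SE 0.10, adjusted p 0.355) and -0.22 (SE 0.099, adjusted p 0.311). Microglial markers summed to 523, 592 and 745 cpm in WT, 447, 512 and 614 cpm in HET and 469.5, 501 and 624.8 cpm in HOM mice, with 10 of 10 detected and Csf1r the most abundant. Other lists stood lower in the same groups: median sums in WT, HET and HOM were 2467, 2222 and 2227 cpm for astrocytes, 268, 224 and 216 cpm for endothelial cells and pericytes and 4832, 4211 and 4623 cpm for oligodendrocytes. The part of these lists in the Rgs10 values was not tested. Rgs9 had differences of -0.13 in HET and -0.33 in HOM with a SE of 0.26 and 0.25, the widest of the members here. The quasi-likelihood test called 0 genes in HET and 2 in HOM, Rai14 and Sod2, and 0 in HOM without mice M3587 and M3652. DESeq2 called 6 in HET and 184 in HOM, and the likelihood ratio test 248 and 429, with Rgs9 in HOM the only member among them.

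At the injection site, AAV-Cre STR, 0 members had an unadjusted edgeR p under 0.05 in HET or HOM, where 251 and 671 of 14655 genes did. Rgs9 measured 1130.0, 1202 and 1309 cpm in WT, 1075, 1135 and 1321 cpm in HET and 976, 1191 and 1238 cpm in HOM mice. In each mutant genotype 3 of 7 libraries were under every WT library and 1 HET library was above all of them, and the log2 differences were -0.050 (SE 0.062) and -0.084 (SE 0.062). Rgs4 measured 525, 549.8 and 791 cpm in HET and 427, 584 and 644 cpm in HOM mice, against 423, 624 and 724 cpm in WT. The largest differences were those of Rgs16, 0.37 (SE 0.36) in HET and 0.30 (SE 0.36) in HOM, within its wide spread of 3.29, 7.79 and 15.6 cpm in WT. Without the 6 libraries high in choroid plexus markers they were 0.34 and 0.50. The quasi-likelihood test called 0 genes in either genotype, DESeq2 0 in HET and 5 in HOM, and the likelihood ratio test 56 and 175, and none of these was a member.

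In AAV-Cre SN, 2 members had an unadjusted edgeR p under 0.05 in HET and 2 in HOM, where 694 and 1109 of 14813 genes did. Without the WT library of mouse M3587, 1 member did so in HET and 0 in HOM, with 465 and 952 of 14793 genes. Rgs9 measured 32.1, 50.6 and 140.3 cpm in WT, 35.3, 41.6 and 43.6 cpm in HET and 25.6, 44.7 and 51.5 cpm in HOM mice. Of the 7 HET libraries 0 and of the 8 HOM libraries 2 were above the WT median. HET minus WT was -0.61 (SE 0.22, adjusted p 0.946) and HOM minus WT -0.52 (SE 0.21, adjusted p 0.636). The highest WT library was that of mouse M3587, and without it the differences were -0.28 (unadjusted p 0.0587, adjusted p 0.999) and -0.19 (unadjusted p 0.178, adjusted p 0.815). Rgs14 measured 1.23, 2.67 and 8.85 cpm in WT, 1.57, 2.17 and 3.09 cpm in HET and 1.41, 2.29 and 4.22 cpm in HOM mice, levels near the bottom of what was tested. Its differences were -0.87 (SE 0.39, adjusted p 0.946) in HET and -0.72 (SE 0.37, adjusted p 0.681) in HOM, and -0.55 and -0.40 without mouse M3587. Rgs4 differed by -0.41 in HET and -0.17 in HOM, and by -0.15 and 0.084 without that mouse. Without the HET library of mouse M3676, high in choroid plexus markers, the HET differences were -0.63 for Rgs9, -0.99 for Rgs14 and -0.34 for Rgs4. All 12 striatal markers were detected, with sums of 294, 336 and 941 cpm in WT, 269, 336 and 373 cpm in HET and 267, 323 and 365 cpm in HOM mice. Pde10a was their most abundant gene in WT and Drd2 in HET and HOM. Rgs10 measured 39.5, 43.6 and 48.5 cpm in WT and 33.3, 39.8 and 46.8 cpm in HOM mice, of which 4 of 8 were under every WT library (log2 difference -0.15, SE 0.070, adjusted p 0.646). Microglial markers there summed to 480.0, 605 and 745 cpm in WT and 507, 559 and 675 cpm in HOM mice, and their part was not tested. The quasi-likelihood test called 0 genes in either genotype, DESeq2 1 in HET and 10 in HOM, and the likelihood ratio test 324 and 218. Members among the likelihood ratio calls were Rgs4, Rgs9 and Rgs14 in HET and Rgs9 in HOM.

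The other lists of the pathway had 0 genes called in the 12 genotype comparisons with the quasi-likelihood test. At an unadjusted p under 0.05, at most 3 of 4 R7 partners, 3 of 7 further RGS genes, 3 G alpha subunits, 5 G beta and gamma subunits, 1 other modulator, 2 receptor kinases and arrestins, 5 effectors and 8 immediate-early genes were reached in any 1 comparison. Of all genes tested, 1.71% to 17.3% did so in these comparisons. The R7 partners reached it in Nestin-Cre STR HET (median log2 difference -0.42), where 17.3% of all genes did, and AAV-Cre SN HOM (median -0.20), where 7.49% did. Immediate-early genes did so in Nestin-Cre PFC, with 7 of 12 in HET (median 0.61) and 8 of 12 in HOM (median 0.80), none past the adjusted threshold, where 9.72% and 10.1% of all genes reached it. The marker lists likewise had 0 genes called.

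Whether a genotype difference depended on region or model was tested by interaction terms. None of the 10 members passed in the 18 terms with the quasi-likelihood test. By region, the share of genes called was 0% for STR minus PFC in each model and genotype, and 0% for the remaining Nestin-Cre HOM terms. For SN minus PFC it was 0.0130% in Nestin-Cre HET, 0.0194% in AAV-Cre HET and 0.188% in AAV-Cre HOM mice. For SN minus STR it was 0.0649%, 0.00648% and 0.00648%, respectively. Without a block by mouse, the lowest unadjusted p of a member was that of Rgs9 in Nestin-Cre HET mice, SN minus PFC, with a difference of log2 fold changes of 1.79 (SE 0.43, unadjusted p 0.000115, adjusted p 0.148). SN minus STR gave 1.51 (SE 0.42, unadjusted p 0.000849, adjusted p 0.127) for the same gene. Both include the SN library of mouse M4566, and without it they were 1.02 (unadjusted p 0.00108, adjusted p 0.839) and 0.74 (unadjusted p 0.0150, adjusted p 0.353). In AAV-Cre HET mice Rgs14 gave -1.0 (SE 0.30, unadjusted p 0.00157, adjusted p 1.000) for SN minus STR, and -0.68 (unadjusted p 0.0214, adjusted p 1.000) without the SN library of mouse M3587. Calls in these terms ended or fell without these libraries: without that of mouse M4566, SN minus PFC had 1 gene called instead of 2 and SN minus STR 0 instead of 10 in Nestin-Cre HET mice. Without that of mouse M3587, 0 genes were called in the AAV-Cre terms, instead of 3 (HET) and 29 (HOM) for SN minus PFC and 1 each for SN minus STR. With mouse number as a block, the lowest unadjusted p of a member was that of Rgs10 in Nestin-Cre HET mice, SN minus STR, at -0.51 (unadjusted p 0.000787, adjusted p 0.209). Rgs9 in these mice, SN minus PFC, then had 1.47 (unadjusted p 0.00216, adjusted p 0.876). Under the same block, Rgs7 in AAV-Cre HOM mice, SN minus PFC, had -0.25 (SE 0.083, adjusted p 0.0941) and passed, against -0.27 (SE 0.17, adjusted p 0.472) without the block. The block raised the count of genes called in that term from 29 to 692 and in AAV-Cre HET from 3 to 136. In the other terms with calls it gave 0 for Nestin-Cre HET, SN minus PFC, 2 for Nestin-Cre HET, SN minus STR, and 0 for SN minus STR in AAV-Cre HET and HOM, where 2, 10, 1 and 1 were called without it. The blocked Nestin-Cre fits also left out the PFC WT library of mouse M4575. They tested 15399 genes instead of 15403, so the block was not the only change in those terms.

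By model, AAV-Cre minus Nestin-Cre, the share called was 0.678% for HET and 3.54% for HOM in PFC, 0.00673% and 0.0202% in STR and 0% for both in SN. Without mice M3587 and M3652 the counts of genes called in PFC went from 100 to 25 for HET and from 523 to 325 for HOM, and without the PFC HET library of mouse M3676, high in choroid plexus markers, that for HET went to 13. Those in STR, 1 and 3, went to 0 without mice M3587 and M3652, and also without the STR libraries high in choroid plexus markers. Rgs4 had the lowest unadjusted p of the members in PFC, with 0.39 (SE 0.13, unadjusted p 0.00468, adjusted p 0.176) for HET and 0.36 (SE 0.14, unadjusted p 0.0130, adjusted p 0.170) for HOM. In STR it was Rgs4 for HET, with 0.75 (SE 0.25, unadjusted p 0.00423, adjusted p 0.206), and Rgs7 for HOM, with 0.32 (SE 0.14, unadjusted p 0.0274, adjusted p 0.690), and 0.26 (unadjusted p 0.0200, adjusted p 0.731) without mice M3587 and M3652. In SN it was Rgs9, with -1.89 (SE 0.48, unadjusted p 0.000342, adjusted p 0.288) for HET, and -0.81 (unadjusted p 0.00586, adjusted p 0.365) without the libraries of mice M4566 and M3587. For HOM it had -0.97 (SE 0.48, unadjusted p 0.0520, adjusted p 0.986), and -0.63 (unadjusted p 0.176, adjusted p 0.996) without that of mouse M3587. These terms were not past the threshold, and no member can be said to differ between the models in its genotype values. Of the pathway lists, the HOM term in PFC called Rgs11 (-0.81), Grk3 (-0.33) and Plcb4 (0.55), and 0 were called in the other 17 terms. Markers called in that term included Ermn and Cnp of oligodendrocytes and Aif1 of microglia, and in the HET term Cldn11, Mal and Mag of oligodendrocytes and Gja1 of astrocytes. Striatal Adora2a was called in the Nestin-Cre HET term of SN minus PFC, which includes the SN library of mouse M4566.

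Within each model and region, all libraries of WT, HET and HOM mice were pooled, so differences between genotypes can enter the relations below. The level of each member was related, on the log2 scale, to the summed level of 9 lists. The lists were 8 of cell type markers, choroid plexus not among them, and the immediate-early genes, which gave 540 relations. Of these, 83 had a Benjamini-Hochberg adjusted permutation p under 0.1 for Pearson's r, 49 of them positive, and 70 did so for Spearman's rho, 38 of them positive, with 63 in common. The counts per member for r were 17 for Rgs4 (6 positive), 16 for Rgs10 (12), 13 for Rgs6 (8), 11 for Rgs9 (7), 7 for Rgs14 (4), 5 for Rgs2 (5), 4 each for Rgs7 (0), Rgs8 (3) and Rgs16 (2), and 2 for Rgs20 (2). The smallest p that the 100000 permutations can give is 1e-05. Relations are described below for the named groups only, and values of the same pair in other groups are not listed. Rgs9 followed striatal markers in PFC. AAV-Cre PFC had r 0.957 (n 22, permutation p 1e-05, adjusted 0.000900) and rho 0.923 (permutation p 1e-05, adjusted 0.00180), and r 0.955 without the 2 libraries farthest from the median of the markers. Nestin-Cre PFC had r 0.900 (n 18, permutation p 1e-05, adjusted 0.000900) and rho 0.924 (permutation p 1e-05, adjusted 0.00180), with r 0.882 without the 2 farthest. In SN the same relation had r 0.837 (n 19, permutation p 0.00321, adjusted 0.0361) and rho 0.428 (permutation p 0.0684, adjusted 0.296) in Nestin-Cre mice. It rested on the farthest libraries, since r was 0.288 without them. In AAV-Cre SN it had r 0.817 (n 22, permutation p 0.00207, adjusted 0.0275) and rho 0.401 (permutation p 0.0648, adjusted 0.289), and r 0.520 without them.

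Rgs4 followed striatal markers in Nestin-Cre STR, with r 0.848 (n 19, permutation p 1e-05, adjusted 0.000900) and rho 0.819 (permutation p 4.00e-05, adjusted 0.00315), and r 0.851 without the 2 farthest. In SN it followed cortical markers, with r 0.844 (n 19, permutation p 3.00e-05, adjusted 0.00202) and rho 0.833 (permutation p 3.00e-05, adjusted 0.00315) in Nestin-Cre mice and r 0.785 without the 2 farthest. AAV-Cre SN had r 0.723 (n 22, permutation p 9.00e-05, adjusted 0.00374) and rho 0.748 (permutation p 0.000130, adjusted 0.00468), and r 0.577 without the 2 farthest. Libraries of SN with more cortical marker RNA thus held more Rgs4 in both models. Of the 11 negative relations of Rgs4, the lowest p were those with dopamine neuron markers in Nestin-Cre SN, with r -0.719 (n 19, permutation p 0.000260, adjusted 0.00877) and rho -0.804 (permutation p 7.00e-05, adjusted 0.00315), and r -0.764 without the 2 farthest, and with oligodendrocyte markers there, with r -0.713 (n 19, permutation p 0.000450, adjusted 0.0116) and rho -0.754 (permutation p 0.000290, adjusted 0.00870), and r -0.646 without them. In Nestin-Cre SN Rgs10 followed microglial markers, with r 0.857 (n 19, permutation p 1e-05, adjusted 0.000900) and rho 0.788 (permutation p 0.000130, adjusted 0.00468), and r 0.807 without the 2 farthest. In AAV-Cre PFC it had r 0.792 (n 22, permutation p 2.00e-05, adjusted 0.00154) and rho 0.779 (permutation p 6.00e-05, adjusted 0.00315), and r 0.734 without them. Astrocyte markers moved with Rgs10 in the same groups, with r 0.749 and 0.764, so the lists are not independent of each other. Rgs10 ran against cortical markers in AAV-Cre PFC, with r -0.621 (n 22, permutation p 0.00199, adjusted 0.0275) and rho -0.652 (permutation p 0.00134, adjusted 0.0289), and r -0.539 without the 2 farthest, and so did Rgs9, with r -0.661 (n 22, permutation p 0.00107, adjusted 0.0187) and rho -0.702 (permutation p 0.000380, adjusted 0.0103), and r -0.720 without them. Rgs6 ran against striatal markers in AAV-Cre STR, with r -0.698 (n 21, permutation p 0.000580, adjusted 0.0130) and rho -0.782 (permutation p 5.00e-05, adjusted 0.00315), and r -0.732 without the 2 farthest. The lowest p of the 4 relations of Rgs7 was with markers of endothelial cells and pericytes in Nestin-Cre STR, with r -0.637 (n 19, permutation p 0.00389, adjusted 0.0412) and rho -0.626 (permutation p 0.00519, adjusted 0.0572), and r -0.479 without the 2 farthest.

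Rgs16 followed thalamic markers in AAV-Cre STR, with r 0.841 (n 21, permutation p 1e-05, adjusted 0.000900) and rho 0.913 (permutation p 1e-05, adjusted 0.00180), and r 0.828 without the 2 farthest. The 5 thalamic markers, all detected and led by Rora, summed to 82.1, 105 and 176 cpm in WT, 77.6, 117 and 219 cpm in HET and 77.3, 113 and 179 cpm in HOM mice of that group. In each genotype the library with the highest Rgs16 (mice M3585, M3610 and M3690) also had the highest sum of choroid plexus markers. These were related to the members after seeing the data, in 60 relations adjusted on their own. With Rgs16 in AAV-Cre STR they had r 0.519 (n 21, permutation p 0.0160, adjusted 0.240) and rho 0.584 (permutation p 0.00590, adjusted 0.0708). Without the 6 libraries high in them this r was 0.201, and that of Rgs16 with thalamic markers 0.830. Of the 60, 2 had an adjusted p under 0.1 for Pearson's r, 0 of them positive, and 5 for Spearman's rho, 3 of them positive. Rgs14 in AAV-Cre STR passed by both, with r -0.730 (n 21, permutation p 0.000210, adjusted 0.0126) and rho -0.668 (permutation p 0.00120, adjusted 0.0422), and r -0.275 without the 6 libraries. Rgs16 in AAV-Cre PFC passed by r alone, with r -0.476 (n 22, permutation p 0.00304, adjusted 0.0912) and rho -0.482 (permutation p 0.0252, adjusted 0.189). Besides Rgs16 in AAV-Cre STR, 3 passed by rho alone: Rgs8 in AAV-Cre STR with r -0.573 (n 21, permutation p 0.00571, adjusted 0.114) and rho -0.644 (permutation p 0.00211, adjusted 0.0422), and in AAV-Cre PFC Rgs8 with r 0.403 (n 22, permutation p 0.0392, adjusted 0.436) and rho 0.643 (permutation p 0.00149, adjusted 0.0422) and Rgs9 with r 0.317 (n 22, permutation p 0.151, adjusted 0.611) and rho 0.615 (permutation p 0.00285, adjusted 0.0428). Without the libraries high in choroid plexus markers (6 in STR, 1 in PFC) their r were -0.545, 0.587 and 0.611. Rgs14 ran against thalamic markers in Nestin-Cre PFC, with r -0.819 (n 18, permutation p 6.00e-05, adjusted 0.00324) and rho -0.810 (permutation p 7.00e-05, adjusted 0.00315), and r -0.765 without the 2 farthest. Rora made up most of this sum there, at a mean of 60.3 cpm in WT against 80.7 cpm for the 5 markers. In HET libraries of that group Gbx2 had 0 counts. Rgs2, whose transcript is itself induced by activity, followed immediate-early genes in AAV-Cre STR, with r 0.798 (n 21, permutation p 1e-05, adjusted 0.000900) and rho 0.782 (permutation p 6.00e-05, adjusted 0.00315), and r 0.774 without the 2 farthest. Rgs6 followed cortical markers in AAV-Cre SN, with r 0.788 (n 22, permutation p 5.00e-05, adjusted 0.00300) and rho 0.616 (permutation p 0.00271, adjusted 0.0417), and r 0.641 without the 2 farthest. Libraries of a group differ in the tissue they hold as well as in expression, and which of these a relation reflects was not tested.

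**Figure D3:**
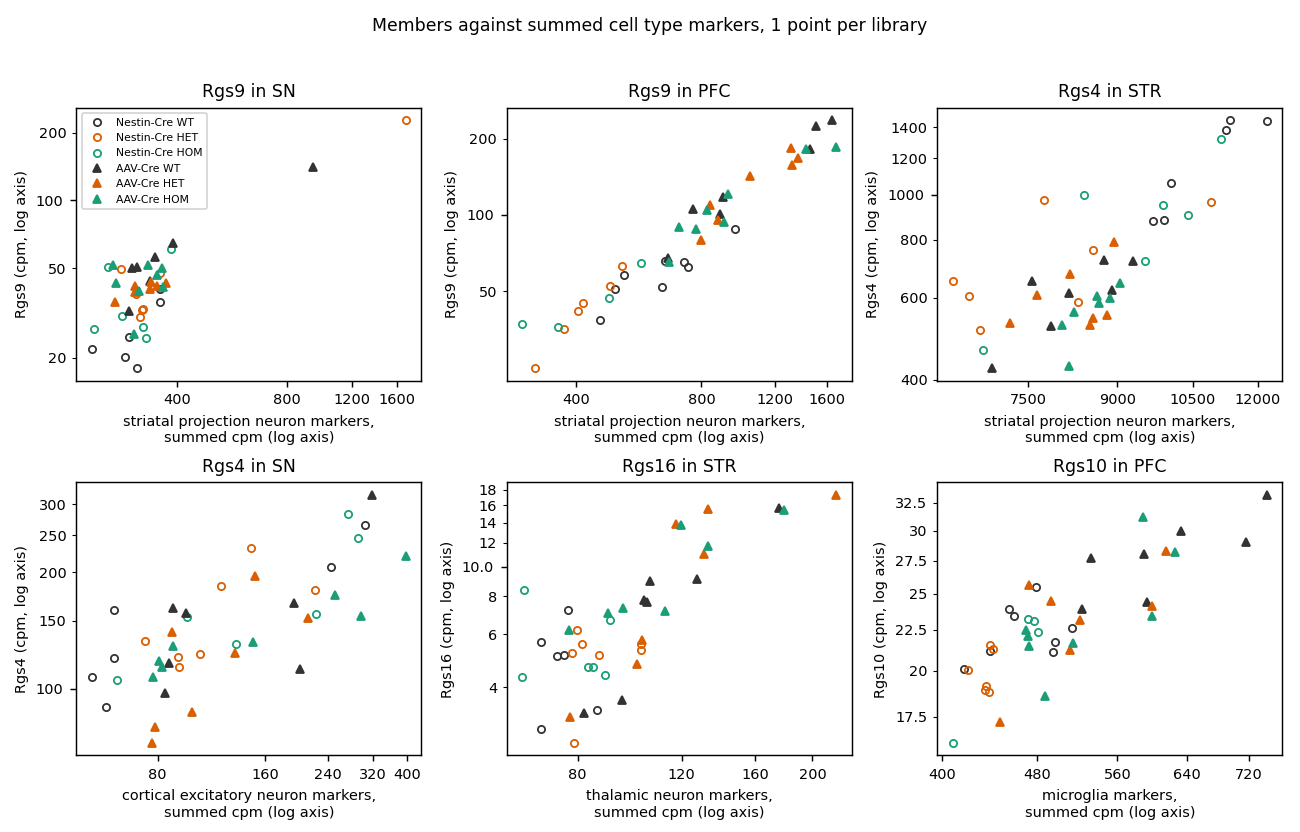
Levels of Rgs9, Rgs4, Rgs16 and Rgs10 against summed cell type markers in the named regions, both in cpm on log axes. Each symbol is 1 library of a Nestin-Cre (open circles) or AAV-Cre (filled triangles) mouse, coloured by genotype. In PFC Rgs9 is higher where striatal markers are higher in both models (r 0.957 in AAV-Cre mice), while in SN a single library of each model lies far to the right.

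Rgs7 was low in every region of a pair of AAV-Cre mice. Mouse M3587 (WT) had 57.3 cpm in PFC, 41.0 cpm in STR and 34.0 cpm in SN. Mouse M3652 (HET) had 55.1 cpm, 36.9 cpm and 34.0 cpm in the same regions. All other AAV-Cre mice were at 78.4 cpm or more in PFC, 53.6 cpm or more in STR and 54.0 cpm or more in SN, so the values of these mice did not overlap with the rest. They rest on 643 or more counted reads per library. Fits without both mice, chosen after seeing the data, gave Rgs7 differences in SN of -0.14 (unadjusted p 0.0427, adjusted p 1.000) for HET and -0.17 (unadjusted p 0.00867, adjusted p 0.692) for HOM, against -0.13 and -0.068 with them. Neither passed the adjusted threshold.

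**Figure D4:**
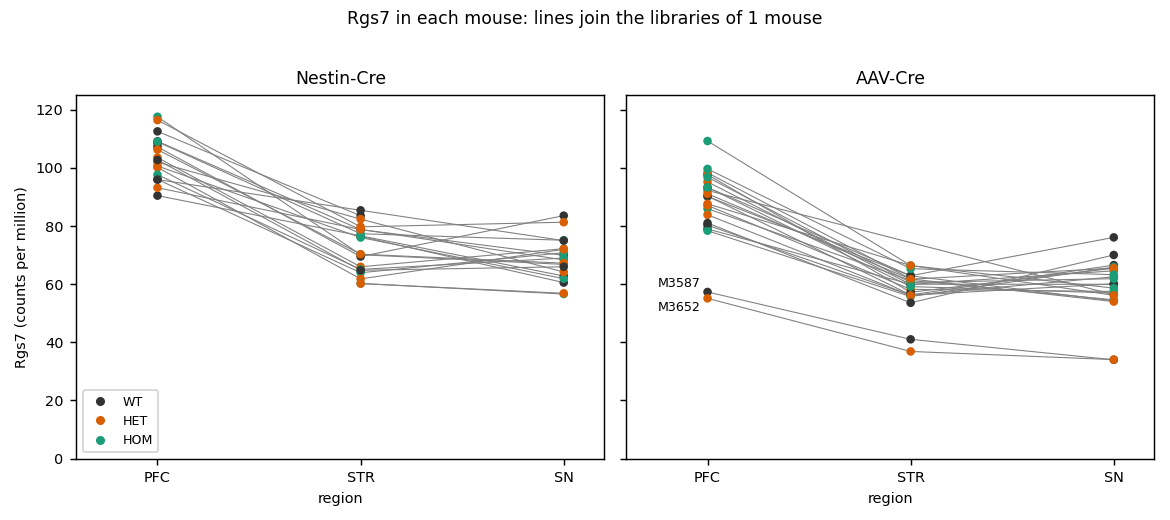
Rgs7 in cpm in PFC, STR and SN of each mouse, for the Nestin-Cre (left) and AAV-Cre (right) models. Each point is 1 library, coloured by genotype, and grey lines join the libraries of a mouse. Mice M3587 and M3652 lie below all other AAV-Cre mice in all 3 regions.

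Over the 41 WT libraries of both models and the 3 regions, the genes whose log2 levels were most like each member's were found by Pearson's r among 14343 genes. These values describe regional patterns, since region, library and model are shared. For Rgs9 they were Adcy5 (0.994), Gpr6 (0.990) and Pde1b (0.987), and for Rgs14 Rab40b (0.993), 2010300C02Rik (0.990) and Rin1 (0.986). Rgs20 was most like Foxp1 (0.981), Rundc1 (0.976) and Cacna2d3 (0.976). Rgs6 was most like Sipa1l2 (0.970), Ccdc136 (0.959) and Mast1 (0.956), Rgs2 most like Gpr155 (0.957), Itgb1bp1 (0.954) and Dnajc2 (0.940), and Rgs4 most like Ano3 (0.950), Arpp19 (0.947) and Rasgef1b (0.945). For Rgs8 they were Kazn (0.948), Cacnb2 (0.944) and Tgfa (0.939), and for Rgs10 Klhl13 (0.946), Xpa (0.937) and Tpst1 (0.935). The lowest values were those of Rgs7, with Gnb1 (0.843), Btbd10 (0.822) and Nmt2 (0.804), and of Rgs16, with C1qtnf1 (0.773), Tmem108 (0.771) and Pip5k1b (0.771). Among the members themselves the highest r were 0.910 for Rgs9 with Rgs20, 0.892 for Rgs4 with Rgs14 and 0.874 for Rgs4 with Rgs20. The most negative were -0.901 for Rgs2 with Rgs6 and -0.817 for Rgs6 with Rgs20.

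By position (build mm10, GRCm38), 6 of the 10 members lie on chromosome 1, which holds 1361 of the 24412 genes. Rgs8 (chr1:153653037-153697665, plus strand) and Rgs16 (chr1:153740353-153745468, plus strand) are neighbours, yet their WT patterns differed, with Rgs8 highest and Rgs16 lowest in STR of Nestin-Cre mice. Rgs2 (chr1:143999338-144004149, minus strand) lies beside Rgs13, Rgs1, Rgs21 and Rgs18, which had mean counts of at most 4.01 per library. Rgs4 (chr1:169741477-169747642, minus strand) lies beside Rgs5. Rgs7 (chr1:175059076-175492545, minus strand) and Rgs20 (chr1:4909576-5070285, minus strand) stand apart on the same chromosome. The others are Rgs9 (chr11:109225355-109298181), Rgs6 (chr12:82616925-83162056), Rgs10 (chr7:128373625-128418172) and Rgs14 (chr13:55369732-55384687). Exons of Rgs8, Rgs16, Rgs6 and Rgs20 overlap genes annotated on the other strand (Gm29529 for Rgs8, Gm28513 for Rgs16, Gm29530 for Rgs6, and Atp6v1h and Gm17101 for Rgs20). The strand setting of the authors' counting is not stated, so reads of those genes in the overlaps may or may not be counted.

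Sequence before the transcription start was available from RefSeq (build GRCm38.p6) for 8 of the 10 members, and was not listed for Rgs14 and Rgs20. It is shown for Rgs2, Rgs4 and Rgs9, 3 of the members that were higher in STR than in PFC. The stretches are the 250 bases upstream of the start on the minus strand, at chr1:144004150-144004399 for Rgs2, chr1:169747643-169747892 for Rgs4 and chr11:109298182-109298431 for Rgs9. Capitals mark matches, on either strand, to TGACG (the core of a cAMP response element), CCAAT and TATAAA. Of 32851 promoters of the same length, 17.8% hold TGACG, 33.8% CCAAT and 12.4% TATAAA. Rgs2 held 2 matches to TGACG and 1 to CCAAT, Rgs4 held 2, 1 and 1 of the 3 motifs in that order, and Rgs9 held 1 each of CCAAT and TATAAA. Rgs8 and Rgs10, also higher in STR, are not shown: each of the 3 starts listed for Rgs8 held 1 match (1 to TGACG, 2 to CCAAT in all), and Rgs10 held 0. Of the members lower in STR of Nestin-Cre mice, Rgs16 held 1 match, to CCAAT, and Rgs6 and Rgs7 held 0. A match is a description of the letters and not a site.
Rgs2: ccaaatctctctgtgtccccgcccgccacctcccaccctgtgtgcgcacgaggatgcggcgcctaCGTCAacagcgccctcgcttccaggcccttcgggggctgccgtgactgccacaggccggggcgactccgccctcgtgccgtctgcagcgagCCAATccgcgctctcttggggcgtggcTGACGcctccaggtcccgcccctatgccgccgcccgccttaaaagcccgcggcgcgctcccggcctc
Rgs4: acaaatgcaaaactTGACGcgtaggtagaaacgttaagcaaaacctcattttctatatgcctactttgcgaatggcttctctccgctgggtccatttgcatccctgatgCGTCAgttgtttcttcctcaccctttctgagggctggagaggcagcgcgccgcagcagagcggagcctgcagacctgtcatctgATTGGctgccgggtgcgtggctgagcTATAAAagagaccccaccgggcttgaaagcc
Rgs9: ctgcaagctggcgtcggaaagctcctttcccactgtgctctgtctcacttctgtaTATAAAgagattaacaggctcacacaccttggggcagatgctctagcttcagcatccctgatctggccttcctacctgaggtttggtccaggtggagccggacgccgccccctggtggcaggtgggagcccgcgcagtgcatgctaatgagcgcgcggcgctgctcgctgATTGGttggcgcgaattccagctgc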

How the data were processed

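Per the labels, the authors made TruSeq Stranded mRNA libraries, sequenced 75 bp single-end reads (NextSeq), mapped them to mm10 with STAR 2.5.2b and counted them with featureCounts 1.5.1. The deposited table holds raw counts of 24412 genes in 121 libraries. From these, edgeR 4.0.16 (R 4.3.3) fitted quasi-likelihood models after TMM scaling to genes that reached 1 cpm in 3 or more libraries, with Benjamini-Hochberg adjustment and a threshold of 0.1. The scripts were tested on simulated data. Alternatives were DESeq2 1.42.0, edgeR's likelihood ratio test, other scaling, no filter, a threshold of 0.05, left-out libraries and a block by mouse.

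Genes named are the 10 members, genes of the fixed pathway and marker lists that passed, Gdnf, and the genes most like each member. Members and lists were chosen with earlier results of these data known. Libraries with the same mouse number were taken to come from 1 animal. As a check of pairing, deviations from group means over 14366 genes correlated with a median r of 0.224 in 111 pairs from the same mouse and -0.0103 in 2339 pairs from different mice. The PFC library of mouse M4575 has the label WT but those of its STR and SN have HOM, and all were kept as labelled in the reported fits. Its PFC library had r 0.411 with its STR and 0.231 with its SN library, which are not among the 111 pairs.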

Additional observations from a re-analysis of the deposited data

Results flagged for a closer look

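A library was marked when its value of a member lay far from the others of its group by Dixon's gap test on cpm values. In 180 groups about 1 in 20 would be marked by chance, and 21 were. For Rgs9 and Rgs14 they include the high values of mouse M4566 in Nestin-Cre SN HET, with Rgs9 at 227 cpm (next 49.7 cpm), Rgs14 at 22.9 cpm (next 3.42 cpm) and also Rgs20 at 22.0 cpm (next 16.6 cpm). In AAV-Cre SN WT mouse M3587 had Rgs9 at 140 cpm (next 64.5 cpm) and Rgs4 at 318 cpm (next 167 cpm). Mouse M3570 in AAV-Cre SN HOM had low Rgs9, 25.6 cpm (next 39.5 cpm), and high Rgs14, 4.22 cpm (next 2.72 cpm). Low Rgs7 was marked in mouse M3587 in STR, 41.0 cpm (next 53.6 cpm), and SN, 34.0 cpm (next 60.0 cpm), and in mouse M3652 in PFC, 55.1 cpm (next 83.9 cpm), STR, 36.9 cpm (next 56.1 cpm), and SN, 34.0 cpm (next 54.0 cpm).

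Among the 4 Nestin-Cre PFC HOM libraries, the marks were Rgs2 in mouse M4569, 63.3 cpm (next 53.8 cpm), Rgs10 in mouse M4580, 16.2 cpm (next 22.3 cpm), and Rgs14 in mouse M4568, 84.7 cpm (next 61.8 cpm). Low Rgs4 was marked in Nestin-Cre PFC WT mouse M4329, 468 cpm (next 600.2 cpm). Rgs16 was low in Nestin-Cre STR HET mouse M4579, 2.62 cpm (next 5.11 cpm), and high in Nestin-Cre SN HET mouse M4577, 33.2 cpm (next 18.2 cpm), and AAV-Cre PFC WT mouse M3578, 11.9 cpm (next 9.72 cpm). The remaining marks were high Rgs8 in AAV-Cre STR HOM mouse M3749, 317 cpm (next 275 cpm), and low Rgs20 in AAV-Cre STR WT mouse M3649, 42.4 cpm (next 59.2 cpm).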

How the results depend on the processing

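For each genotype, region and model difference of members named in the report, every alternative run gave a value, except the threshold of 0.05. Of these values, 662 kept the direction and the side of the threshold of the reported fit, and 11 took the other sign. Another 14 passed where the reported fit did not, and 8 did not pass where it did. Interaction terms are not in these counts. Rgs14 in Nestin-Cre SN HET went from 0.44 to -0.61 without mouse M4566. Rgs4 in AAV-Cre SN HOM went from -0.17 to 0.084 without mouse M3587 and 0.084 without mice M3587 and M3652. The other signs that turned belonged to smaller differences. Rgs16 in Nestin-Cre WT SN against PFC went from -0.030 to 0.019 with DESeq2, 0.019 with its size factors in edgeR and 0.054 with the block by mouse. Rgs8 in the same contrast went from 0.020 to -0.0091 without mouse M4575 and -0.014 with the block. Rgs2 in AAV-Cre WT SN against PFC went from 0.045 to -0.027 without mice M3587 and M3652. Rgs4 between the models in SN went from 0.016 to -0.23 without mouse M3587, and to the same value without both mice. Leaving out mice M3587, M3652 or M4566, or the 9 libraries high in choroid plexus markers, was chosen after seeing the data, and fewer samples are part of each such fit. Otherwise the cause was not tested. Among 87 member differences the report does not name, 35 of 615 alternative values took the other sign, all of them from an absolute value under 0.1.

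In the genotype comparisons DESeq2 called 116 genes in Nestin-Cre PFC HET, 227 in PFC HOM, 535 in STR HET (1 member), 1 in STR HOM, 5 in SN HET and 1 in SN HOM. In AAV-Cre mice it called 6 in PFC HET, 184 in PFC HOM, 5 in STR HOM, 1 in SN HET and 10 in SN HOM. The likelihood ratio test called 415 (1 member), 310 (1 member), 1242 (1 member), 277, 332 (1 member) and 119 genes in the Nestin-Cre comparisons in that order. In AAV-Cre mice it called 248 in PFC HET, 429 (1 member) in PFC HOM, 56 in STR HET, 175 in STR HOM, 324 (3 members) in SN HET and 218 (1 member) in SN HOM. The reported test called 36 genes in Nestin-Cre PFC HOM, 2 in AAV-Cre PFC HOM and 0 elsewhere. A threshold of 0.05 left 11 and 1. DESeq2 size factors gave 55 in Nestin-Cre PFC HOM. Without the filter there were 2 in Nestin-Cre SN HOM and 1 each in AAV-Cre STR HOM and SN HOM. Leaving out 1 library at a time gave 1 to 126 in Nestin-Cre PFC HOM (1, 9, 122, 13, 126, 17 and 15 without mice M4568, M4569, M4580, M4326, M4329, M4529 and M4609) and 0 members each time. Without mouse M4575, 91 genes were called in Nestin-Cre PFC HET, and without mice M3587 and M3652, 0 in AAV-Cre PFC HOM. The cause was not tested.

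Since libraries of a mouse are paired, region contrasts and interaction terms were refitted with mouse as a block. In the interactions of genotype with region this gave 0 genes instead of 2 for Nestin-Cre HET, SN minus PFC, 2 instead of 10 for SN minus STR, 136 instead of 3 for AAV-Cre HET, SN minus PFC, and 692 instead of 29 for AAV-Cre HOM, SN minus PFC, with 1 member, Rgs7. For SN minus STR it gave 0 instead of 1 in AAV-Cre HET and HOM. In the Nestin-Cre terms the blocked fit also left out the PFC WT library of mouse M4575. There 15399 genes were tested with the block and 15403 without it, so the block was not the only change. Without the SN library of mouse M4566 there was 1 gene for Nestin-Cre HET, SN minus PFC, and 0 for SN minus STR, and without that of mouse M3587 there were 0 in the AAV-Cre terms that include SN. The block changed no other call of a member. In the terms between the models, leaving out mice M3587 and M3652 gave 25 genes for PFC HET, 325 for PFC HOM and 0 for STR HET and HOM. Leaving out the libraries high in choroid plexus markers gave 13 for PFC HET and 0 for STR HET and HOM. The reported fit called 100, 523, 1 and 3. Counted reads limit Rgs14 in SN and Rgs16 most, with as few as 16 and 44 reads in a library.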
